A study of Mus musculus with 13 samples.

Results

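The genes described here are 40 germline and meiosis genes of the mouse, taken by symbol from the deposited expression table with no filter on level. All 40 were found among its 23217 genes. Polyadenylated RNA of 13 embryos of embryonic day 9.5 was sequenced, 3 labelled xHet and 10 labelled xHomo, all on a C57BL/6J background. The series concerns Tet1, an oxidase of 5-methylcytosine, in the erasure of genomic imprints. As background on the study, these embryos are understood to be offspring of fathers heterozygous (xHet) or homozygous (xHomo) for a Tet1 mutation, but the labels spell out neither name nor the genotype of mother or embryo. Litter, sex and batch are not in the labels, so p-values measure the spread between these samples only. Each library is labelled embryo with no tissue named, and a lower value in such a mixture can stand for fewer cells of a type or for less RNA per cell, which cannot be told apart.

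Meiosis pairs and recombines homologous chromosomes with proteins that most body cells do not use. These include a meiotic cohesin that holds sister chromatids, a synaptonemal complex that zips homologues together, and enzymes that cut DNA and repair it from the homologue. Germ cells also silence transposons through piRNAs, small RNAs bound by PIWI proteins. At midgestation the only germ cells are the few primordial germ cells on their way to the gonads, which have not entered meiosis. In somatic cells many germline genes are held off by DNA methylation of CpG-rich promoters and by a Polycomb complex that contains E2f6, Pcgf6, Max and Mga.

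Values are in FPKM, a measure that divides a gene's fragments by transcript length and library size, so levels of different genes can be set side by side. The read depth behind them is unknown, and values near 0 are the least certain. Summed FPKM ran from 543948 to 570161 in xHet and from 500126 to 662936 in xHomo embryos. The library of xHomo embryo 3 stood apart, with a median of 1.06 FPKM over all genes against 1.52 to 1.82 FPKM in the other 12 embryos. Xist, which coats the inactive X in female cells, was at most 0.08 FPKM in the xHet embryos, under 1 FPKM in 5 xHomo embryos and at least 30.5 FPKM in the other 5. Sex therefore differs in part with the group. Markers of the whole embryo were present in all libraries. Of 18 such genes 18 had a mean of at least 1 FPKM, from 4045 FPKM for the embryonic globin Hbb-y to 3.18 FPKM for Foxa2 of the endoderm and floor plate.

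By the bounds given below, most of these germline genes were at trace level, between silent and transcribed. Of the 40 genes, 6 had a mean of at least 1 FPKM over the 13 embryos and are called transcribed here, which is 15% of them, against 54.9% of all genes in the table. Another 7 (17.5%) stayed under 0.1 FPKM in every embryo and are called silent, against 21.6% of all genes. The other 27 (67.5%, against 23.4%) lay between and are called trace. This split depends on the bound, since 18 of the 40 stayed under 0.2 FPKM in every embryo. A value of 0 in all 13 embryos was listed for 5.0% of the 40 and for 15.9% of all genes. The median of the 40 means was 0.108 FPKM, against 1.83 FPKM over all genes. In 31 of the 40 no embryo reached 1 FPKM.

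**Figure D1:**
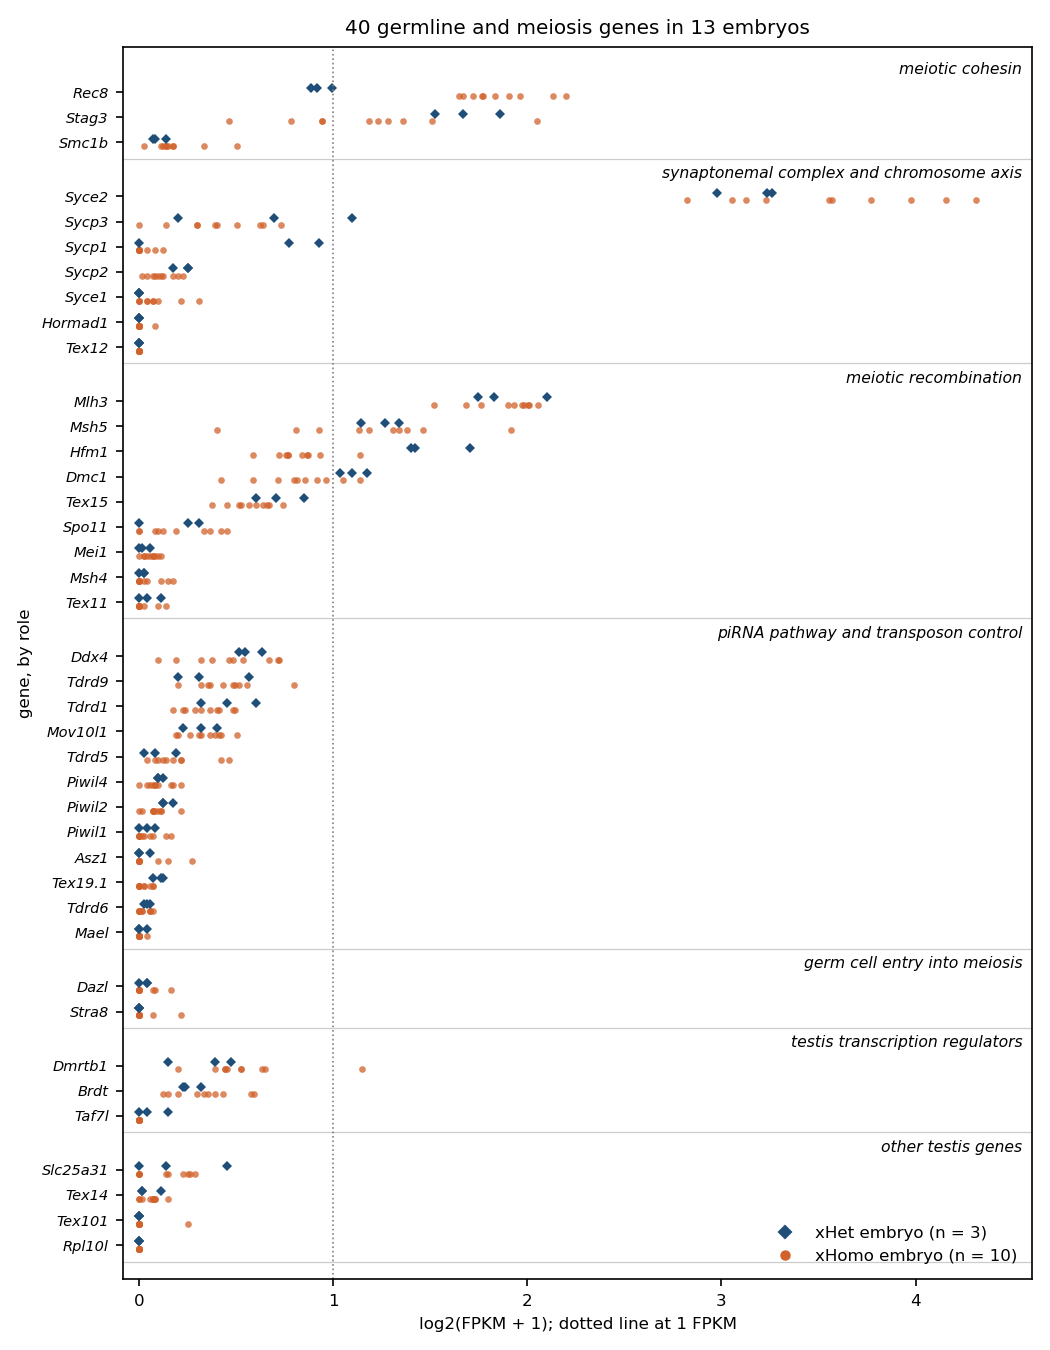
Level of each of the 40 genes in every embryo, as log2(FPKM + 1) on the horizontal axis, with genes grouped by role on the vertical axis, diamonds for the 3 xHet and circles for the 10 xHomo embryos. Most points lie left of the dotted line at 1 FPKM, and Rec8 and Hfm1 are the members whose groups do not overlap.

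The silent genes belong to several steps of germ cell life. Tex12, which encodes a part of the central element of the synaptonemal complex, and Rpl10l, a testis copy of the ribosomal protein gene Rpl10, were listed at 0 in all 13 embryos. Rpl10l resembles Rpl10, and the way reads shared by such copies were assigned is not given in the sources used here. Hormad1, a chromosome axis protein, was listed at 0 in 12 embryos and at 0.06 FPKM in xHomo embryo 6. Mael, a piRNA factor, was listed at 0 in 11 embryos and reached 0.03 FPKM at most. Mei1 of meiotic recombination had a highest value of 0.08 FPKM, and Tdrd6, a Tudor domain protein of germ granules, one of 0.05 FPKM. Tex19.1, which restrains transposons in germ cells, lay between 0.05 and 0.09 FPKM in the xHet embryos and between 0 and 0.05 FPKM in the xHomo embryos.

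The 27 trace genes split by how often they reached 0.1 FPKM. In 6 of them a lone embryo did. Dazl, an RNA-binding protein needed for germ cells to become competent for meiosis, reached 0.12 FPKM in xHomo embryo 6 and was listed at 0 in 8 of 13 embryos. Stra8, the retinoic acid-induced gatekeeper of meiosis, was listed at 0 in 11 embryos and reached 0.16 FPKM in xHomo embryo 10. Tex101, Tex14, Tex11 and Taf7l were the other 4, with highest values of 0.19, 0.11, 0.10 and 0.11 FPKM. The last pair lies on the X chromosome. In none of these 6 did more than 1 embryo reach 0.1 FPKM.

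Another 7 reached 0.1 FPKM in 2 or 3 embryos. These were the PIWI genes Piwil1, Piwil2 and Piwil4 with highest values of 0.12, 0.16 and 0.16 FPKM, the piRNA factor Asz1 with 0.21 FPKM, Msh4 of crossover formation with 0.13 FPKM, Syce1 of the synaptonemal complex with 0.24 FPKM, and Sycp1. Sycp1, which forms the transverse filaments of the synaptonemal complex, had a distribution of its own. It was listed at 0 in xHet embryo 1 and stood at 0.90 and 0.71 FPKM in xHet embryos 2 and 3, while the xHomo embryos ranged from 0 to 0.09 FPKM with a median of 0. Both high embryos were xHet, and the remaining xHet embryo lay within the xHomo range.

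The remaining trace genes were found in more embryos. Slc25a31, Smc1b, Spo11, Tdrd5 and Sycp2 reached 0.1 FPKM in 6 to 8 embryos and 0.42 FPKM at most. Ddx4, the germ cell RNA helicase also called Vasa, reached it in 12 embryos, with 0.55, 0.46 and 0.43 FPKM in the xHet embryos and a lowest, median and highest value of 0.07, 0.39 and 0.65 FPKM in the xHomo embryos. Brdt, a testis bromodomain protein, and Sycp3, an axis protein, also did so in 12. Sycp3 stood at 0.15, 0.62 and 1.14 FPKM in the xHet embryos and between 0 and 0.66 FPKM in the xHomo embryos. Its locus in the table is shared with Chpt1 (4.28 ± 0.257 FPKM in the xHet group, 4.41 ± 0.802 FPKM in xHomo embryos; SD, n = 3 and 10), so part of its signal cannot be assigned with certainty. In all 13 embryos Tdrd1, Tdrd9 and Mov10l1 of the piRNA pathway, Tex15, Dmrtb1 and Dmc1 were at or above 0.1 FPKM. Their values reached 0.52, 0.74, 0.42, 0.80, 1.22 and 1.26 FPKM at most, the highest being that of Dmc1, the meiotic strand exchange protein.

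By role, transcription was found in the chromosome-handling genes. Of 3 meiotic cohesin genes 2 were transcribed, of 9 recombination genes 3, and of 7 synaptonemal complex and axis genes 1. Of 12 piRNA and transposon control genes none was transcribed, 9 were at trace level and 3 silent. The 2 genes of entry into meiosis, the 3 testis transcription regulators and the 4 other testis genes had no transcribed member either. Some of the transcribed genes have known roles outside meiosis, such as Mlh3, a mismatch repair protein.

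The 6 transcribed genes ranged over an order of magnitude. Syce2, a central element protein of the synaptonemal complex (chromosome 8, 87396010 to 87417820 on mm9), was the highest. It measured 8.40, 6.88 and 8.60 FPKM in the xHet embryos in order of number and had a lowest, median and highest value of 6.08, 10.8 and 18.9 FPKM in the xHomo embryos. The xHomo embryos spread over both sides of the xHet range, with 6 of 10 above it and 1 below. Syce2 shares its locus in the table with Gcdh, an enzyme of lysine breakdown that stood at 14.5 ± 1.85 and 14.2 ± 1.44 FPKM (SD, n = 3 and 10), and its values are uncertain to that extent.

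Mlh3 (chromosome 12, 86575470 to 86611514) was next, with 3.30, 2.55 and 2.36 FPKM in the xHet embryos and 1.87, 2.88 and 3.15 FPKM as lowest, median and highest in the xHomo embryos. The groups overlapped, and its coefficient of variation of 15.4% among xHomo embryos was the smallest of the 6 genes. Msh5, which stabilises crossover intermediates with Msh4 (chromosome 17, 35165550 to 35183668), stood at 1.21, 1.53 and 1.41 FPKM in the xHet embryos and ran from 0.32 over a median of 1.38 to 2.78 FPKM in the xHomo embryos. Its partner Msh4 averaged 0.0315 FPKM over all 13 embryos.

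Stag3, the meiotic cohesin subunit related to Stag1 and Stag2 (chromosome 5, 138721737 to 138753621), stood at 1.88, 2.18 and 2.63 FPKM in the xHet embryos. In the xHomo embryos its lowest, median and highest values were 0.38, 1.31 and 3.14 FPKM. Of these 10 embryos 9 lay below all xHet embryos and 1 lay above. Dmc1, just under the bound of 1 FPKM with a mean of 0.873 FPKM, stood at 1.05, 1.14 and 1.26 FPKM in the xHet embryos and at 0.34, 0.785 and 1.2 FPKM as lowest, median and highest in the xHomo embryos, 8 of which lay below all xHet embryos.

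Stag3, Msh5 and Dmc1 had their lowest value in the same embryo, xHomo 3, and their highest xHomo value in the same embryo, xHomo 9. Their xHomo coefficients of variation were 56.2%, 49.0% and 32.5%. In xHomo embryo 3 the median over all genes was also the lowest, at 1.06 FPKM, and in xHomo embryos 4 and 9 it was 1.82 FPKM. In xHomo embryo 4 Stag3, Msh5 and Dmc1 stood at 1.27, 1.27 and 0.74 FPKM. Hfm1, in contrast, had its highest xHomo value, 1.2 FPKM, in xHomo embryo 3. The part of these libraries' overall levels in the spread of the 3 genes was not tested.

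**Figure D2:**
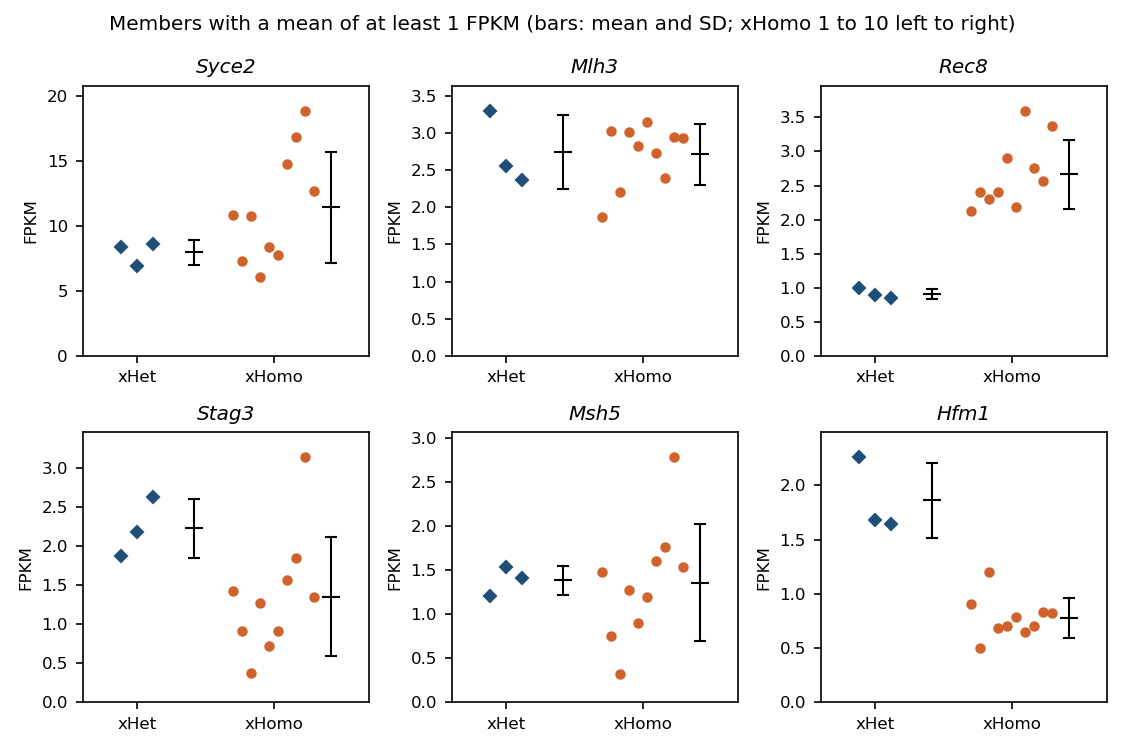
FPKM of the 6 transcribed genes on a linear axis that starts at 0, with the 3 xHet embryos as diamonds, the 10 xHomo embryos as circles and a bar for the mean and SD of each group. Rec8 lies higher and Hfm1 lower in all 10 xHomo embryos than in any xHet embryo, while Syce2, Mlh3, Msh5 and Stag3 overlap.

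The comparison of xHomo with xHet embryos was fitted over all 12755 genes with a mean of at least 1 FPKM, on log2(FPKM + 1), which understates the change of low genes. Rec8 was the one germline gene of the 6 tested that passed, in the higher direction. It encodes the meiotic kleisin, the cohesin subunit that closes the ring around sister chromatids (chromosome 14, 56237003 to 56244232). Its values were 0.99, 0.89 and 0.85 FPKM in the xHet embryos (numbers 1, 2, 3) and 2.13, 2.49 and 3.60 FPKM as lowest, median and highest in the xHomo embryos. Every xHomo embryo lay above every xHet embryo. The mean rose 2.93-fold, from 0.910 ± 0.0721 to 2.66 ± 0.50 FPKM (SD, n = 3 and 10), which on the log2 scale is a difference of 0.93 (SE 0.13; adjusted p = 0.0142, limma). In this comparison 0.0235% of all genes tested were called higher and 0 genes lower, where 973 (7.63%) and 220 (1.72%) had an unadjusted p under 0.05 in limma. Of the 6 members Rec8 and Hfm1 had such a p. Its xHet mean lies under the bound of 1 FPKM, so Rec8 entered the test through its xHomo values. With the bound at 0.1 FPKM its adjusted p in limma was 0.0122. Rec8 was known to be called when the genes were chosen, so its call does not speak for the list.

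The Rec8 call did not hold under every setting. With a pseudocount of 5 its adjusted p was 0.0659, with Xist as a covariate 0.0798 (log2 change 0.85), and without xHet embryo 1, 2 or 3 limma gave 0.0667, 0.195 and 0.12. In the exact permutation test Rec8 had the smallest p that 286 splits allow, 0.0035, which after adjustment over all genes was 0.388. Its log2 change stayed between 0.89 and 0.96 when any 1 embryo was left out. In the 5 xHomo embryos with Xist under 1 FPKM, as in all xHet embryos, Rec8 ran from 2.13 to 2.90 FPKM, and in the other 5 from 2.30 to 3.60 FPKM. With those 5 low-Xist xHomo embryos alone against the xHet embryos, a setting added after seeing the data, the log2 change was 0.86 (adjusted p = 0.026, limma).

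Hfm1, a helicase needed for meiotic crossovers (chromosome 5, 107269216 to 107354909), went the other way without passing. It stood at 2.26, 1.68 and 1.64 FPKM in the xHet embryos and at 0.50, 0.745 and 1.2 FPKM as lowest, median and highest in the xHomo embryos. Every xHomo embryo lay below every xHet embryo. The means were 1.86 ± 0.347 and 0.779 ± 0.187 FPKM (SD, n = 3 and 10), a ratio of 0.419, and the difference on the log2 scale was -0.68 (SE 0.13; adjusted p = 0.168, limma). Its mean over the 13 embryos was 1.03 FPKM, so it entered the test only through its xHet values. Hfm1 passed in limma without xHomo embryo 3 (adjusted p = 0.0296), with the bound lowered to 0.1 FPKM (0.0316) and without a bound (0.0273).

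Rec8 and Hfm1 were the 2 genes without overlap between the groups among the 38 of the 40 that had a value above 0. Over the 19526 genes of the table with such a value, 1.67% had groups without overlap, 1.13% with xHomo above and 0.543% with xHomo below. Among the 12755 genes tested it was 2.24%. The 40 genes were chosen with earlier results of these data known, so this count does not speak for the list either. The 4 other transcribed genes did not pass. Stag3 had a log2 change of -0.51 (SE 0.25) with a 95% interval from -1.04 to 0.02, and Syce2 one of 0.40 (SE 0.27) with an interval from -0.18 to 0.98. For Msh5 it was -0.06 (SE 0.23, interval from -0.56 to 0.43) and for Mlh3 -0.01 (SE 0.13, interval from -0.28 to 0.26). The adjusted p of these genes in limma ran from 0.541 for Stag3 to 0.978 for Mlh3. The median log2 change of the 6 genes was -0.04, beside 0.05 over all genes tested.

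With the bound lowered to 0.1 FPKM, 21 of the 40 genes could be fitted. Their values were higher in xHomo embryos for 9 and lower for 12, with a median log2 change of -0.06 beside 0.03 over the 16245 genes of that fit. Rec8 and Hfm1 passed there, where 0.0185% of genes were called higher and 0.0246% lower. Sycp1 had the next smallest p, at -0.54 on the log2 scale (SE 0.13; adjusted p = 0.344, limma). It rests on the high values of xHet embryos 2 and 3, through which Sycp1 also passed the bound. Dmc1 followed with -0.28 (SE 0.13; adjusted p = 0.569, limma). At these levels the pseudocount of 1 reduces the size of a change. A gene can pass the bound through the group where it is higher, so the split into 9 and 12 depends on the bound. Without a bound 38 of the 40 were fitted, 19 higher and 19 lower in xHomo embryos, with a median log2 change of -0.002.

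**Figure D3:**
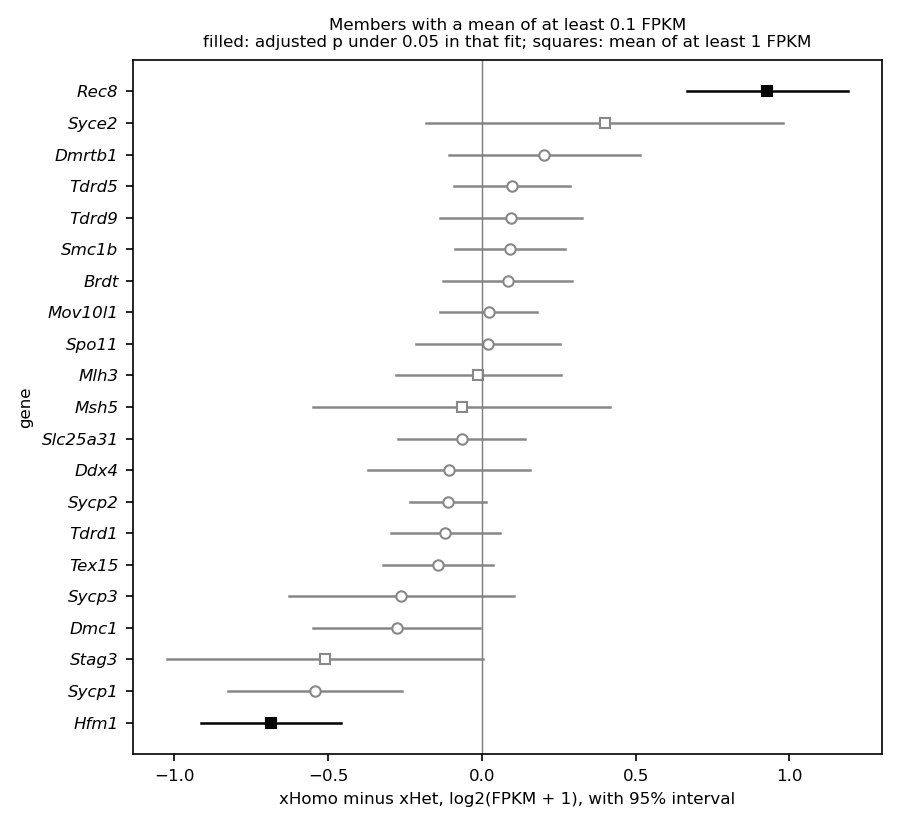
Difference between xHomo and xHet embryos in log2(FPKM + 1) with its 95% interval for the 21 genes with a mean of at least 0.1 FPKM, from the fit with that bound. Squares are genes with a mean of at least 1 FPKM, filled symbols mark Rec8 (0.93) and Hfm1 (-0.68), the genes with an adjusted p under 0.05 in that fit, and the intervals of most others include 0.

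The reference sequence at both start sites is shown because these 2 genes separated the groups in opposite directions. The windows hold 250 bases before and 50 bases after the annotated start, read 5′ to 3′ along the gene, from RefSeq on GRCm38.p6. That build differs from the mm9 of the expression table, and no coordinate was carried over between them. Capitals mark CpG dinucleotides, the sites of DNA methylation.
Rec8, chr14:55617916-55618215, plus strand: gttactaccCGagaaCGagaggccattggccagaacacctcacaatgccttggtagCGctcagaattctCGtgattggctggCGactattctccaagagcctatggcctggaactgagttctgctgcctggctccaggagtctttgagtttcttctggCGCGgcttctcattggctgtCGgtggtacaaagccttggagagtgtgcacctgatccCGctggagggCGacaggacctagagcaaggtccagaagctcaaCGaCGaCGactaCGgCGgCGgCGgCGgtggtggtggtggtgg
Hfm1, chr5:106925841-106926140, minus strand: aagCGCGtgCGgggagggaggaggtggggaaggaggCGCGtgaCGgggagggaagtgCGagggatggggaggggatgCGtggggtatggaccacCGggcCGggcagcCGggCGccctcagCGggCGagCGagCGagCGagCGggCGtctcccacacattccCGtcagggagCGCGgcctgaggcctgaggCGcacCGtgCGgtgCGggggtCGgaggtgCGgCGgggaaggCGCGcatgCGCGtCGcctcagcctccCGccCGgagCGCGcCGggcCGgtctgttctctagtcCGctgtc
The Rec8 window held 18 CpG and the Hfm1 window 41. Methylation was not measured in these libraries.

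The genes beside Rec8 did not pass the test. Ipo4, a nuclear import receptor that begins 234 bases beyond the end of the Rec8 locus on mm9, averaged 35.4 ± 1.23 FPKM in the xHet against 33.9 ± 4.72 FPKM in the xHomo group (SD, n = 3 and 10; log2 change -0.07, limma adjusted p = 0.864). Irf9, an interferon response factor 8136 bases before it, stood at 6.58 ± 0.137 and 5.02 ± 1.16 FPKM (log2 change -0.36, limma adjusted p = 0.524). No gene of the table lay within 10 kb of Hfm1. Strand use in the quantification is not given in the sources used here, so reads from a neighbour that runs into a gene may be counted with it.

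Some germline genes were also set beside a broadly expressed relative, since FPKM is per length. In 11 pairs covering 8 of the 40 genes the relative was the higher one in all 13 embryos. The gap by mean was smallest for Stag3, with Stag1 10.7-fold and Stag2 14.1-fold above it. Rad21, the mitotic kleisin, averaged 60.1 FPKM against 2.26 FPKM of Rec8, and the gap narrowed from 57.7-fold in xHet to 23.4-fold in xHomo embryos. Smc1a was 367-fold above Smc1b, and Brd2 and Brd3 were 203-fold and 172-fold above Brdt.

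**Figure D4:**
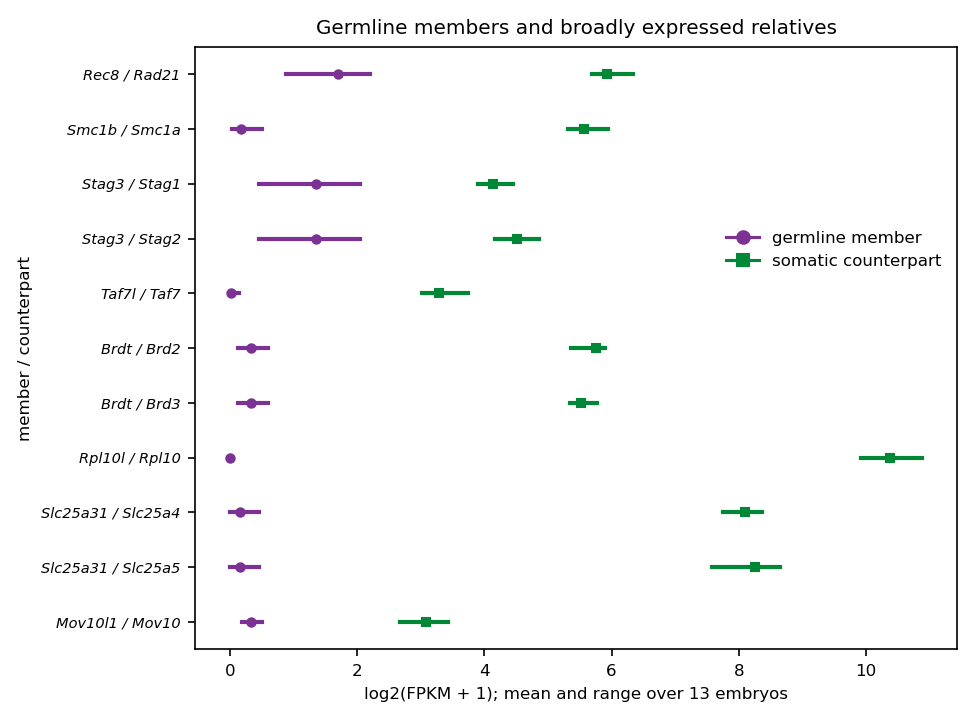
Mean and range over 13 embryos of log2(FPKM + 1) for 11 pairs of a germline gene (circles) and a broadly expressed relative (squares). The ranges of a pair do not overlap in any of the 11 rows.

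The relatives and the regulators were themselves tested. Of 25 mitotic cohesin genes and somatic relatives 25 were measured above the bound. In the fit 21 had a positive and 4 a negative change and 0 passed, with a median log2 change of 0.14 beside 0.05 over all genes. Over all 12755 genes tested 7620 had a positive and 5135 a negative change, and 0.0235% were called higher and 0 lower. The counts of the lists that follow stand beside the same shares. Slc25a4, the heart and muscle ATP carrier, had the smallest p, with 231 ± 19.9 and 287 ± 27.7 FPKM (SD, n = 3 and 10; limma adjusted p = 0.494). A list of 27 genes held repressors of germline genes and their cofactors, and also the 5-methylcytosine oxidases Tet1, Tet2 and Tet3 and the demethylation gene Tdg. All 27 were tested, 19 with a positive and 8 with a negative change, and 0 passed. Tet1 averaged 2.35 and 2.15 FPKM in xHet and xHomo embryos. E2f6 averaged 24.8 and 23.6 FPKM in xHet and xHomo embryos, Pcgf6 18.2 and 18.1 FPKM, and the maintenance methyltransferase Dnmt1 51.9 and 59.5 FPKM. The smallest p of this list belonged to Cbx3, a heterochromatin protein, with 185 ± 15.3 and 227 ± 24.7 FPKM (limma adjusted p = 0.50).

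A further 36 germline and meiosis genes, outside the 40, were looked up as well. Of these 11 were silent, 14 at trace level and 11 tested, with 5 positive and 6 negative changes and 0 passing. The highest were Trip13, an ATPase also used at the mitotic checkpoint, with 24.1 and 23.3 FPKM by group mean, Psmc3ip with 19.5 and 18.5 FPKM, Mns1 of cilia and sperm tails with 17.5 and 16.7 FPKM, and Mnd1, the partner of Psmc3ip in strand exchange, with 9.0 and 9.87 FPKM. Mybl1, a regulator of male meiosis, had the smallest p, with 2.19 ± 0.346 FPKM in the xHet against 1.65 ± 0.355 FPKM in the xHomo group (SD, n = 3 and 10; limma adjusted p = 0.544). Prdm9, which sets meiotic recombination sites, averaged 1.27 and 1.05 FPKM. Ddx25 averaged 6.61 and 6.48 FPKM, Tdrkh 4.35 and 4.87 FPKM and Ybx2 3.16 and 4.11 FPKM. Ythdc2 averaged 3.71 and 3.81 FPKM and Pld6 1.2 and 1.36 FPKM. The regulators Sohlh1 and Figla and the synaptonemal gene Syce3 were listed at 0 in all 13 embryos.

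Primordial germ cells are the germ cells an embryo of this stage can hold, and 13 of their markers were looked up. All 13 were in the table, 10 were tested and 0 passed, and their summed level ran from 146 to 158 FPKM in xHet and from 125 to 176 FPKM in xHomo embryos. That sum is carried by genes used in other tissues too, such as Lin28a and Sox2. In the fit 3 had a positive and 7 a negative change. Tfap2c, also an epithelial factor, averaged 2.24 (xHet) and 3.94 FPKM (xHomo), with 9 of 10 xHomo embryos above all xHet embryos, and Ifitm3 13.6 and 17.9 FPKM, with 5 of 10 above (limma adjusted p = 0.481 and 0.521). Prdm14 did not exceed 0.02 FPKM and Dppa3 was listed at 0 in the 3 xHet embryos and reached 0.39 FPKM in xHomo embryo 5. Nanos3 stood at 4.62, 1.61 and 1.17 FPKM in the xHet embryos and between 0.08 and 2.20 FPKM in the xHomo embryos. Of these 10 xHomo embryos 6 lay below all xHet embryos and 0 above (log2 change -0.70, limma adjusted p = 0.521). For Lin28a and Nanog 8 of 10 xHomo embryos lay below all xHet embryos, with 2 and 1 above. In xHomo embryo 7, which had the highest Rec8 value, Prdm1 was at its highest value of 2.25 FPKM, Tfap2c was at 4.63 and Nanos3 at 0.76 FPKM, and Dppa3 was listed at 0.

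Placenta and decidua markers, which would show carried-over tissue, were partly present. Of 16 markers 6 were silent, 8 at trace level and 2 tested, and Tpbpa, Ctsq, Prl8a6, Prl8a9 and Psg21 were listed at 0 throughout. The 16 summed to 10.9 to 13.4 FPKM in xHet and 12.9 to 21.6 FPKM in xHomo embryos. Hand1, which the embryonic heart also expresses, made up most of that sum, with 9.03 ± 0.190 and 12.6 ± 1.59 FPKM (SD, n = 3 and 10; limma adjusted p = 0.372), and every xHomo embryo lay above every xHet embryo. The trophoblast hormone genes Prl2c2 and Prl3d1 averaged 0.227 and 0.0967 FPKM over the xHet embryos against 1.11 and 0.533 FPKM over the xHomo embryos, of which 7 and 5 of 10 lay above all xHet embryos. Prl3b1 averaged 2.06 and 1.22 FPKM, Gcm1 0.233 and 0.206 FPKM and Synb 0.203 and 0.154 FPKM. Syna averaged 0.0467 and 0.104 FPKM, with 7 of 10 xHomo embryos above all xHet embryos. Psg17 averaged 0.0333 and 0.065 FPKM and Prl8a2 0 and 0.027 FPKM. Ascl2 averaged 0.247 and 0.53 FPKM with a highest value of 1.89 FPKM, but its median was 0.17 FPKM in both groups. Of 10 xHomo embryos 4 lay above and 4 below all xHet embryos for Ascl2. Of 12 red cell and yolk sac markers 12 were tested and 0 passed. The part of these markers in the Rec8 and Hfm1 values was not tested.

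Promoter sequence was then described for the 35 of the 40 genes found in the RefSeq table, with the window richest in CpG where a gene had several. Their median was 20 CpG per 300 bases, beside 22 for genes of the table with a mean of at least 1 FPKM and 2 for silent genes of the table. The silent members, 6 of them matched, had 8 to 26 CpG with a median of 20, the 23 trace members 6 to 48 with a median of 19, and the 6 transcribed members 18 to 41 with a median of 28.5. The ranges overlapped, and the silent germline genes had CpG numbers nearer to those of transcribed genes than of other silent genes. The window with the most CpG, 48, belonged to Tdrd5, at 0.134 FPKM.

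**Figure D5:**
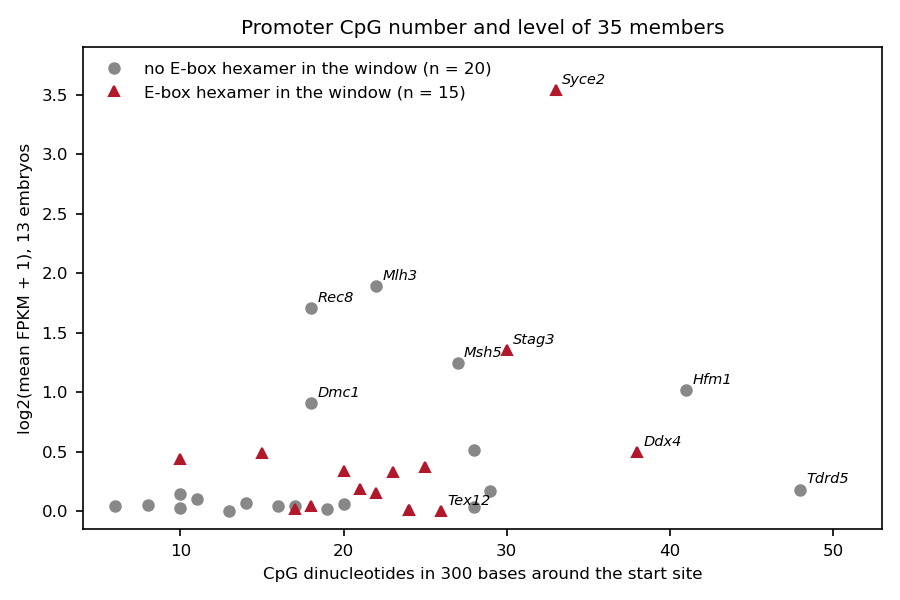
Number of CpG dinucleotides in 300 bases around the start site (horizontal axis) and log2 of the mean FPKM + 1 over 13 embryos (vertical axis) for 35 genes. Triangles mark the 15 windows with an E-box hexamer, found among silent, trace and transcribed genes.

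Max and Mga bind the E-box CACGTG, a palindrome that reads the same on both strands. It was found in 15 of the 35 windows (42.9%), against 7.39% of the windows of all 27025 genes in the RefSeq table and 10.8% of those of genes with a mean of at least 1 FPKM. There were 19 matches in these 15 windows, all upstream of the start annotated for the window, and 13 began within 100 bases of it. By level, 3 of 6 silent, 10 of 23 trace and 2 of 6 transcribed members held one. Neither Rec8 nor Hfm1 did. The Syce2 match rests on its window richest in CpG, whose start was not matched to a GENCODE transcript. The other Syce2 window, which was matched, held no E-box. The longer form TCACGTGA, also a palindrome, was found in 0 of the 35 windows, against 1.04% of all windows and 2.21% of those of genes with a mean of at least 1 FPKM. The matches in silent and transcribed members are printed with up to 7 bases on either side and the E-box in capitals, to show that it occurs in both.
Tex12, silent, first base at -93: agactgtCACGTGgctcgcg
Mael, silent, first base at -223: ggcctacCACGTGacaatcc
Hormad1, silent, first base at -57: ggtgcgcCACGTGccagtga
Hormad1, silent, first base at -20: cactgcgCACGTGctgaccg
Stag3, transcribed, first base at -170: tggagccCACGTGacaggac
Syce2, transcribed, first base at -88: cattcagCACGTGctcgggg
The core of the E2F site, TCCCGC on either strand (GCGGGA on the other), was found in 18 of the 35 windows (51.4%), Rec8 and Hfm1 included, against 21.1% of all windows and 39.5% of those of genes with a mean of at least 1 FPKM. By level, 5 of 6 silent, 8 of 23 trace (34.8%) and 5 of 6 transcribed members held the E2F core. The E-box and E2F counts are matches of letters, and binding was not measured.

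A transcribed and a silent window with the E-box are printed in full for comparison, with CpG and the E-box in capitals.
Stag3, chr5:138280259-138280558, plus strand: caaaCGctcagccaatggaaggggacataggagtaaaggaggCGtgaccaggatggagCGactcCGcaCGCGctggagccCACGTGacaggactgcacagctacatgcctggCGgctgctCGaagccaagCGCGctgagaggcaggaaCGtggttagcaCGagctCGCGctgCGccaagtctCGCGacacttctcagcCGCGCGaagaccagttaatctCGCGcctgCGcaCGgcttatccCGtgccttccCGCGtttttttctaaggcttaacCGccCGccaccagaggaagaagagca
Tex12, chr9:50561219-50561518, minus strand: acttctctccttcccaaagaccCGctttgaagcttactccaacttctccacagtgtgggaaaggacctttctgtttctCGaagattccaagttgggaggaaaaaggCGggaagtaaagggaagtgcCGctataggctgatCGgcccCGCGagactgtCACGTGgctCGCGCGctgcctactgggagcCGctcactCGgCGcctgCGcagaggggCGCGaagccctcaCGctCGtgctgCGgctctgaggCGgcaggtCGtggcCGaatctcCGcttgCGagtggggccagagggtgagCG
The Stag3 window held 30 CpG and the Tex12 window 26, while the levels were 1.56 FPKM by mean and 0 in every embryo.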

How the data were processed

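Per the labels' protocols, RNA of 13 embryos was DNase-treated on RNeasy columns, poly(A) RNA was isolated and strand-marking NEBNext libraries were built. The authors deposited 1 table of FPKM values to 2 decimals with loci on mm9, made with bcl2fastq 1.8.2, TopHat and Cufflinks according to the submitters' processing notes. The sources used here do not give the TopHat and Cufflinks versions, the annotation or the strand setting. Low values of 83 olfactory receptor genes did not fall on steps of whole reads. Depth is thus unknown and no count test was run. Locus starts were counted from 1.

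Groups were taken from the titles. Genes with a mean of at least 1 FPKM (12755) were fitted on log2(FPKM + 1) with limma 3.58.1 in R 4.3.3 (eBayes with a trend, two-sided, no covariate), with Benjamini-Hochberg adjustment over all of them at 0.05. The step was tested on simulated data. Some pairs of a member and a relative are not reported here. Silent means under 0.1 FPKM in every embryo. The members and gene lists were chosen with earlier results of these data known, and the pairs and the E2F core after values were seen. Every member is named, with the 3 xHet values and the lowest, median and highest xHomo value for those of at least 1 FPKM. Of other genes, neighbours of called members, Xist and up to 4 of smallest p per list were to be named; list genes beyond these were chosen after their values were seen. Promoter windows were read from the RefSeq table of GRCm38.p6, where 35 of 40 symbols matched, in gene orientation as checked against GENCODE transcripts for 41 of 42 windows. The window without a match was the Syce2 window with the most CpG, which was the one used for that gene. Tables and figures used Python 3.11.15 with pandas 2.3.3 and matplotlib 3.10.9.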

Additional observations from a re-analysis of the deposited data

Results flagged for a closer look

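In 33 genes that reached 0.1 FPKM the highest or lowest xHomo embryo was compared with the other 9 by Dixon's ratio on log2(FPKM + 1). In 5 the highest embryo stood apart beyond the 95% critical value for 10 samples, which chance gives in about 1 in 20 groups. That rate does not apply to genes kept because the same embryo reached 0.1 FPKM, as for Tex101, Stra8 and Dazl, or to values that are mostly 0. Dmrtb1, a testis transcription factor, was 1.22 FPKM in xHomo embryo 9, against 0.15 to 0.57 FPKM in the other xHomo and 0.11 to 0.39 FPKM in the xHet embryos. The other 4 lie near the floor: Tex101 at 0.19 FPKM in xHomo embryo 1 and 0 elsewhere, Stra8 at 0.16 FPKM in xHomo embryo 10 against at most 0.05 FPKM, Piwil2 at 0.16 FPKM in xHomo embryo 9 against at most 0.08 FPKM, and Dazl at 0.12 FPKM in xHomo embryo 6 against at most 0.06 FPKM in the other xHomo embryos. For Piwil2 the xHet embryos reached 0.13 FPKM.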

How the results depend on the processing

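Against 3 genes called higher, 1 was with a bound of 5 FPKM or with Xist as a covariate, 5 with TPM rescaling or quantile normalization, 2371 with array weights, 0 in the exact permutation test, whose unadjusted p cannot fall under 0.0035 (smallest adjusted p 0.388, 1015 higher and 181 lower at an unadjusted p under 0.05) and 7 with low-Xist xHomo embryos only, a setting chosen after seeing the data. Against 0 called lower there were 8 with no bound, 4 with a bound of 0.1 FPKM, 408 with array weights and 1 with low-Xist embryos. Leaving out 1 embryo gave 1 to 10 higher (10 without xHomo embryo 3, 5 without xHomo embryo 2, 1 without xHet embryo 2 or 3) and 0 to 2 lower. The number of the 40 genes called, 1, became 0 with a pseudocount of 5, a bound of 5 FPKM (Rec8 untested), the Xist covariate or the exact test, 2 with no bound or a bound of 0.1 FPKM, 4 with array weights (Rec8, Hfm1, Stag3 and Syce2), and 0 to 2 on leaving out 1 embryo (0 without any 1 xHet embryo, 2 without xHomo embryo 3).

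Silent genes numbered 3 under 0.05 FPKM, 18 under 0.2 FPKM, 2 when listed at 0 throughout and 4 after TPM rescaling, against 7, and 7 to 9 without 1 embryo. Transcribed genes numbered 3 at a mean of at least 2 FPKM, 8 at a mean of at least 0.5 FPKM and 7 after TPM rescaling, against 6. Without 1 embryo they numbered 5 to 6. With array weights the changes of Msh5 and Mlh3 turned to 0.012 and 0.044, and without 1 embryo they ran from -0.15 to 0.022 and from -0.084 to 0.094. With the replicate number as a block 0 genes were called higher, 1 lower and 0 of the 40. The labels do not say whether same-numbered embryos share more than a number. Their deviations correlated at -0.07, -0.04 and -0.04, and each xHet embryo correlated best with another number. That best match was picked from several embryos, so it cannot decide the question. FPKM holds no depth, so how far depth limits the trace genes is unknown.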

Other observations

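Other early germ cell and pluripotency genes varied between embryos. Nanog stood at 3.86, 3.0 and 3.39 FPKM in the xHet embryos and at 7.08 FPKM in xHomo embryo 3, the library with the lowest median over all genes. The xHomo median was 2.005 FPKM and the lowest xHomo value 1.11 FPKM. Of 10 xHomo embryos 8 lay below all xHet embryos and 1 above (log2 change -0.39, limma adjusted p = 0.685). Pou5f1 did not exceed 0.72 FPKM in any embryo.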
